A study of Mus musculus with 6 samples.

Results

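NK cells are innate lymphocytes that kill infected or transformed cells without a rearranged antigen receptor. Their activity follows the balance between activating receptors such as NKp46 and NKG2D and inhibitory receptors such as the Ly49 and CD94/NKG2A families, which read MHC class I on the target. In tumors they release granzymes and perforin, make interferon gamma, and draw other cells in with chemokines such as XCL1 and CCL5. Mouse NK cells mature from CD27-positive cells to CD11b-positive cells, and their close relatives, the type 1 innate lymphoid cells (ILC1), carry the integrin CD49a (Itga1) where circulating NK cells carry CD49b (Itga2).

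NK cells were picked by their transcripts from 6 droplet single-cell RNA libraries of mice bearing KPCA ovarian tumors, with no sort described before sequencing. A cell with at least 250 genes and at most 5% mitochondrial UMIs (unique molecular identifiers, each standing for 1 captured transcript) was taken as an NK cell when it met 4 conditions. Ncr1 (NKp46), Klrb1c (the NK1.1 antigen gene) and Klre1 (a lectin-like NK receptor) together had at least 2 UMIs. Cd3d, Cd3e and Cd3g together had 0, Cd79a had 0, and Lyz2, C1qa, C1qb and C1qc together had at most 5. The rule found 1395 NK cells among 51633 passing cells, and these held 7885537 UMIs. The level of the marker genes in these cells follows from the rule and is no finding.

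KPCA is an HR-proficient mouse line with engineered changes that include altered Trp53 and overexpressed Ccne1 and Akt2, placed in the ovarian bursa of female C57BL/6 mice aged 6 to 8 weeks. The control mouse received solvent and rat IgG. 2DG (2-deoxy-D-glucose, a glucose analog used in the study to lower N-glycan branching) was injected at 500 mg/kg every 2 days from day 9. 2FF (2-fluoro-L-fucose in the study, 2F-Peracetyl-Fucose in the labels; a fucose analog that blocks fucosylation) was given by gavage every 2 days after the tumor cells had been kept in 300 µM of it for 3 days, so in the 2FF mice the tumor itself was pretreated. Anti-PD-L1 antibody was injected at 5 mg/kg from day 9, 2 times a week for 3 weeks, alone or with 2DG or 2FF (called the 2DG combination and the 2FF combination), and mice were killed at day 30. The labels give the tissue as lymph node and no age, the series text speaks of young and aged mice, and the study describes digested tumors and the age given here. The lymph node stroma genes Ccl21a, Ccl19 and Madcam1 were at 0 to 0.0881 CPM (UMIs per 1e+06 UMIs of the cells summed) in the other cells of every library, and the epithelial keratin gene Krt8 at 0.652 to 15.0 CPM. Each treatment is 1 library from 1 mouse, so a difference between 2 libraries carries no test, and every interval below covers counting error only. The antibody was the exception: it was tested over its 3 pairs of libraries, taking its effect as equal in all of them.

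NK cells made up a small share of every library and the smallest in the control. The control library held 23 NK cells among 9075 passing cells, 0.253% (95% Clopper-Pearson interval 0.161 to 0.380). The share was 1.76% with 2FF (1.5 to 2.05, 162 cells), 2.92% in the 2FF combination (2.56 to 3.32, 228 cells) and 3.41% with anti-PD-L1 (3.04 to 3.81, 300 cells). It was 3.47% with 2DG (3.07 to 3.90, 267 cells) and 4.6% in the 2DG combination (4.17 to 5.05, 415 cells). The intervals of the 2FF combination, anti-PD-L1 and 2DG overlapped each other, and no other intervals did. Each of the 3 libraries with anti-PD-L1 had a larger share than its partner without the antibody. Requiring no UMI of another T cell gene lowered every share, to 0.0441% in the control, 0.369% with 2FF and 0.564% in the 2FF combination. It left 0.74% with 2DG, 0.875% with anti-PD-L1 and 0.964% in the 2DG combination, so anti-PD-L1 then stood above 2DG. Against lymphocytes alone the order was less spread, since T cells were also few in the control (486 Cd3-positive cells, those with at least 2 Cd3 UMIs). Cells with fewer Cd3 UMIs were not counted as T cells. Of NK cells plus Cd3-positive cells, NK cells were 4.52% in the control (2.89 to 6.70), 4.72% with 2FF (4.03 to 5.48), 8.52% with 2DG (7.57 to 9.56), 9.70% with anti-PD-L1 (8.68 to 10.8), 10.2% in the 2FF combination (8.95 to 11.5) and 12.5% in the 2DG combination (11.4 to 13.7). On that denominator the control and 2FF intervals overlapped.

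**Figure D1:**
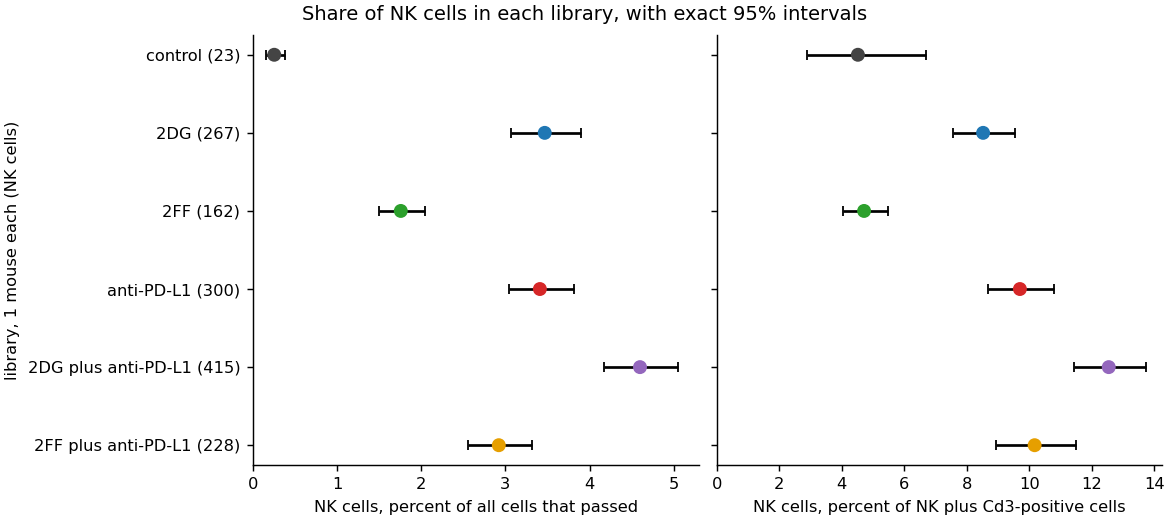
Share of NK cells in each library, in percent of passing cells and of NK plus Cd3-positive cells (at least 2 Cd3 UMIs), with 95% Clopper-Pearson intervals. The control stands lowest at 0.253% of passing cells and the 2DG combination highest at 4.6%.

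Depth limits what can be read from each library. The NK cells held 161261 UMIs in the control, 1620254 with 2DG, 917964 with 2FF, 1473407 with anti-PD-L1, 2190141 in the 2DG combination and 1522510 in the 2FF combination. A gene with no UMI could still be at up to 18.6 CPM in the control (3 UMIs), against 1.37 to 3.27 CPM in the other 5 libraries. The median NK cell held between 4655.5 and 6492 UMIs, and no NK barcode was shared between libraries. The threshold of 2 marker UMIs cut through a gradient. Members with exactly 2 marker UMIs (4 to 30 per library) had Gzma at 1155 to 4478 CPM, and cells with 1 that met the other conditions (28 to 54 per library) had Gzma at 112 to 1680 CPM.

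Several genes outside the rule matched the NK label. Gzma, a granzyme stored in NK granules, led the lists of NK identity and cytotoxic genes. It was at 7987 CPM in the control and 10120 to 10841 CPM in the other 5 libraries, where CD8 T cells (at least 2 Cd3 UMIs, at least 2 Cd8a plus Cd8b1 UMIs and no Cd4 UMI, 7553 cells) had 229 to 496 CPM. Tyrobp, the adaptor of activating NK receptors, was at 695 to 1120 CPM in NK cells and at 30.1 to 51.1 CPM in CD8 T cells. Eomes and Tbx21, the factors that set NK identity, were at 122 to 217 and 327 to 564 CPM. Eomes was shared with CD8 T cells. With all cells thinned to an equal depth, it was detected in 20.4 to 27.5% of NK cells and 14.3 to 22.9% of CD8 T cells per library. It was seen more often in NK cells in every library except 2DG (22.2% against 22.9%). The ranges overlapped, so Eomes by itself did not separate NK cells from CD8 T cells. Trac, the T cell receptor alpha constant gene, was at 6.2 to 14.2 CPM against 387 to 531 CPM in CD8 T cells. Trbc1 was at 217 to 324 CPM, and most members had a UMI of some T cell gene outside the rule; unrearranged beta-chain transcripts are known in NK cells. Pdcd1, which encodes PD-1, was at 1.8 to 6.2 CPM against 147 to 268 CPM in CD8 T cells. The ILC3 cytokine gene Il22 had no UMI in any NK cell, and the 4 B cell markers together were at 28.9 to 45.8 CPM, mostly Ighm. These differences from other cells are a description and carry no test.

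Some members carried myeloid transcripts. Members with no UMI of Lyz2, C1qa, C1qb or C1qc numbered 19 of 23 in the control, 227 of 267 with 2DG, 122 of 162 with 2FF, 251 of 300 with anti-PD-L1, 345 of 415 in the 2DG combination and 180 of 228 in the 2FF combination. The 11 macrophage and monocyte markers summed to 1228 CPM in the control, 561 with 2DG, 588 with 2FF, 436 with anti-PD-L1, 326 in the 2DG combination and 709 in the 2FF combination, and Cst3, the cystatin C gene abundant in macrophages and dendritic cells, led the list outside the 2FF combination. There Spp1, the osteopontin gene, led with 422 CPM, and 438 of its 642 UMIs lay in 1 cell. Of the 2191 Cst3 UMIs, 1543 lay in 13 cells with at least 20 each, of which there were 1 to 4 per library. Gzma was at 0 in those cells in 4 of the 6 libraries. In the control 1 such cell held 13423 UMIs, 8.32% of all its NK UMIs, with 163 of 167 Cst3 UMIs, all 40 Ccr7 UMIs and all 42 Ifi27l2a UMIs. The 6 neutrophil markers summed to 10.0 to 94.6 CPM and the 5 dendritic cell markers to 22.4 to 50.6 CPM. Mast cell, epithelial and stroma lists were each under 10 CPM in every library. The part of these cells in the results was not tested, except where values without them are given below.

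The effector genes were high in every library. Gzmb, the main apoptosis-inducing granzyme, had 2561 CPM in the control, 2368 with 2DG, 2916 with 2FF, 2143 with anti-PD-L1, 3193 in the 2DG combination and 3031 in the 2FF combination. Prf1 (perforin) lay between 1364 and 1972 CPM, Ccl5 between 5994 and 8056 CPM, and Ifng (interferon gamma) between 190 and 281 CPM. Ccl4, a chemokine for monocytes and T cells, varied more. It stood at 620 CPM in the control (interval 505 to 754), 1616 with 2DG (1555 to 1680), 1970 with anti-PD-L1 (1899 to 2043), 2672 with 2FF (2568 to 2780), 2938 in the 2FF combination (2852 to 3025) and 3558 in the 2DG combination (3480 to 3638). No neighbours in that order overlapped by counting error. Ccl3, its neighbour on chromosome 11, was at 155 CPM in the control and at 319 to 733 CPM in the others.

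**Figure D2:**
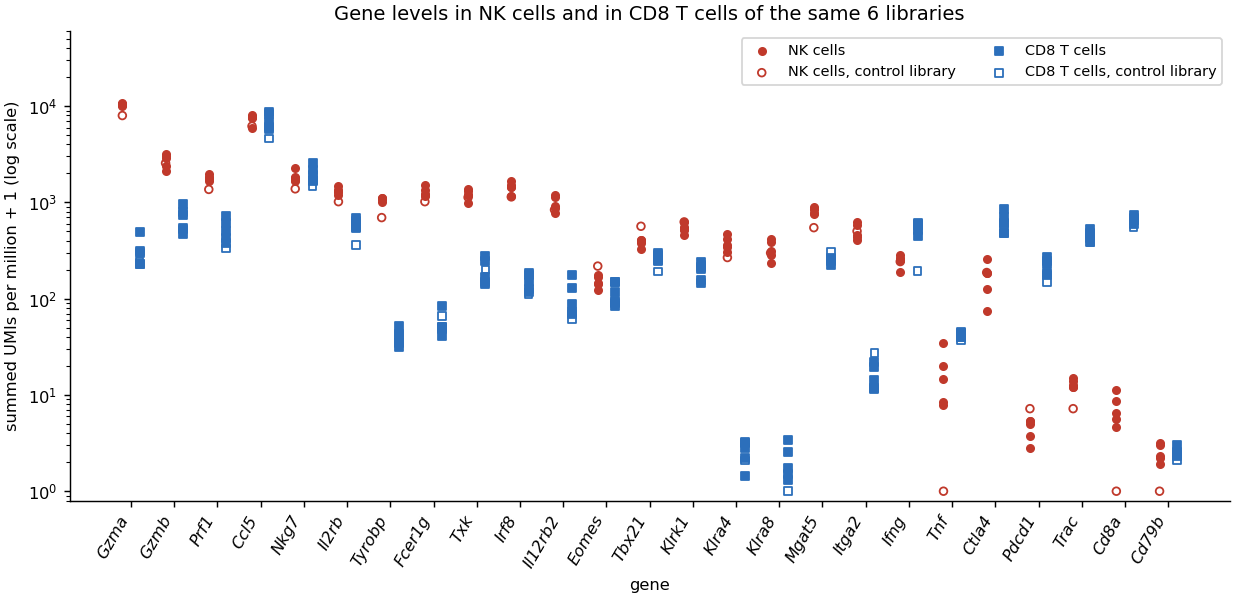
Level in NK cells of genes that the rule did not use, 1 point per library on a log axis of CPM + 1, with the control as open symbols, beside the level in CD8 T cells. Gzma and Tyrobp stand far above CD8 T cells in all 6 libraries, and Trac and Pdcd1 stand below.

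The Ly49 receptors, which NK cells express in part and at random so that cells differ in which MHC they read, were each seen in a part of the cells. The 9 Klra genes lie side by side on the minus strand of mouse chromosome 6 (GRCm38, chr6:129898996-130386874), where Klrb1c (chr6:128778485-128789215) and Klre1 (chr6:129577905-129585827) also lie. They are near-identical in sequence, so reads can be lost or misplaced between them and each gene's level is uncertain. At an equal depth of 2000 UMIs per cell, Klra7 (Ly49G) was detected in 29.9 to 36.5% of NK cells per library and Klra9 in 27.9 to 33.9%. Klra4 (Ly49D, an activating form) was detected in 24% in the control, 24.6% with 2DG, 26.7% with 2FF, 31.7% with anti-PD-L1, 34.5% in the 2DG combination and 30.2% in the 2FF combination. Klra8 (Ly49H, also activating) was detected in 23.5%, 26.9%, 23.6%, 29.3%, 34.7% and 32.2% in the same order. For these 2 genes the 3 libraries with anti-PD-L1 stood above the 3 without it. In CD8 T cells thinned to the same depth, none of the 9 genes exceeded 2.15%. Klra3 was at 10.5 to 17.0%, and Klra1 was at 7.4 to 10.6% outside the control, where none of the 23 cells had a UMI. Cells with no Ly49 gene detected made up 21.1 to 31.8% at that depth, and cells with 3 or more 18.2 to 28.5%. By level, Klra4 stood at 267 CPM in the control and at 304 to 464 CPM in the others, and the sum of the 9 genes ran from 1240 CPM in the control to 1748 CPM in the 2FF combination.

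**Figure D3:**
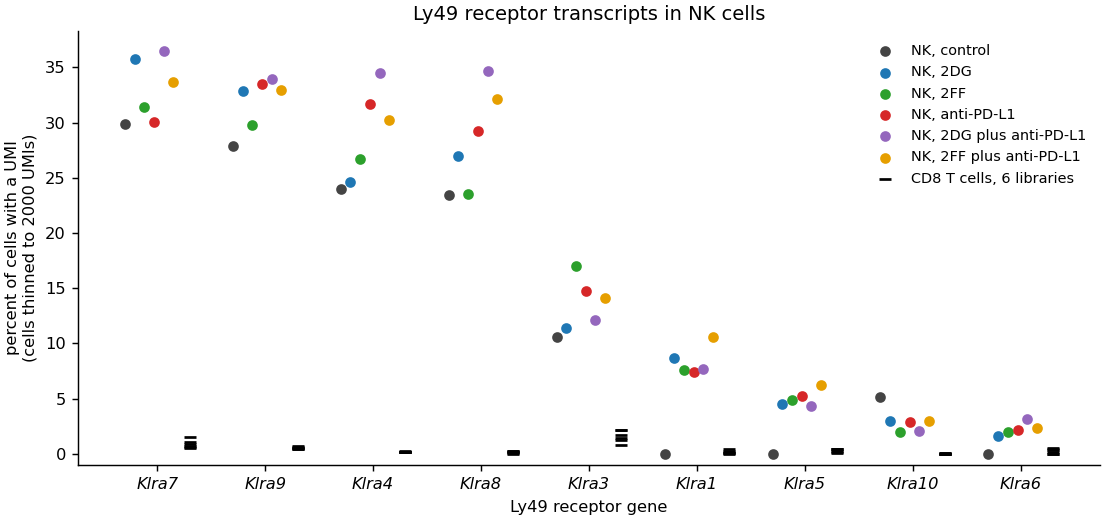
Share of NK cells with a UMI of each Ly49 gene after thinning every cell to 2000 UMIs, in percent, for the 6 libraries (coloured points), with CD8 T cells as black dashes. Klra7, Klra9, Klra4 and Klra8 are each seen in 23.5 to 36.5% of the cells, the other genes in fewer.

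Within the NK cells, Itga1, an integrin gene of ILC1 and tissue-resident cells, and Itga2, one of circulating NK cells, were used to form 2 gates. Cells with an Itga1 UMI and no Itga2 UMI (171 cells) were compared with cells with an Itga2 UMI and no Itga1 UMI (759 cells) over summed counts in 5 libraries, each library serving as its own block; the control had 3 Itga1 cells and was left out. Of 4907 genes tested, 191 were higher in Itga1 cells (3.89%) and 227 in Itga2 cells (4.63%) at an adjusted p under 0.05 (edgeR's quasi-likelihood test, Benjamini-Hochberg adjustment over all genes tested). Leaving out the 2DG combination took the count for Itga2 cells to 131 and leaving out 2DG to 137, and thinning to 2000 UMIs per cell gave 75 and 68 genes. The 5 libraries are different treatments, so the test asks for a shared difference over them, and the genes named by size were chosen to have 1 sign in every library, so that agreement is not a result. Itga1 and Itga2 define the groups and are not results.

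Many genes passed the filter on low counts only through the gate where they were high, so no counts or medians over lists of NK genes are given for the gates. A fitted value for a gene with few or no UMIs in 1 gate gives no size, so such genes are given mainly by level. Gzmc, a granzyme of activated and tissue-resident cells, is one of these, with 1 to 6 UMIs per library in Itga2 cells. Its level in Itga1 cells was 975 CPM with 2DG, 404 with 2FF, 48.2 with anti-PD-L1, 786 in the 2DG combination and 913 in the 2FF combination, against 2.5 to 7.1 CPM in Itga2 cells. The anti-PD-L1 library stood apart: 196 of its 211 Gzmc UMIs lay in 1 cell that had UMIs of both integrins and so entered neither gate. In the other treated libraries the leading cell held 102 of 386 Gzmc UMIs with 2DG, 64 of 193 with 2FF, 109 of 355 in the 2DG combination and 81 of 256 in the 2FF combination, and Gzmc has close paralogs beside it on chromosome 14.

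Inpp4b, a phosphatase that damps PI3K signalling and marks ILC1, was at 464, 1263, 827, 614 and 1001 CPM in Itga1 cells of the 5 libraries and at 41.6 to 80.0 CPM in Itga2 cells, with no overlap (log2 fold change 3.88, SE 0.18, edgeR adjusted p = 3.08e-10). Rora, a lymphoid factor, was another ILC1 gene higher in Itga1 cells (2.73). Cd200r1, an inhibitory receptor, was at 32.3 to 66.0 CPM in Itga1 cells and 0 to 4.71 CPM in Itga2 cells. Tnfsf10, which encodes the death ligand TRAIL, was at 41.3 to 210 CPM and 11.8 to 24.7 CPM. Tnfsf10 and Gpr183, an oxysterol-guided migration receptor, passed the filter mainly through their Itga1 cells, as did Ltb, Lag3 and Cd160 below. No fold change is given for these genes. Xcl1 (2.79), Emb (1.87), Cd7 (1.86) and Thy1 (1.86), all genes of early NK maturation, were also higher. Ltb (lymphotoxin beta), a further gene of that kind, was at 131 to 393 CPM in Itga1 cells and 6.57 to 57.1 CPM in Itga2 cells.

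Several checkpoint genes were higher in Itga1 cells. Ctla4 was at 320, 548, 165, 538 and 457 CPM in Itga1 cells and at 35.3 to 93.6 CPM in Itga2 cells, with a log2 fold change of 2.82 (SE 0.18, edgeR adjusted p = 9.44e-09). Cd96 (1.13) and Klrc1, which encodes NKG2A (0.62), were higher as well, and Lag3 and Cd160 are left out for the reason given above. Tigit did not pass, with 0.14. Pdcd1 was too low to test.

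Several genes of mature cytotoxic cells were higher in Itga2 cells. Cma1, a mast cell protease gene that mature NK cells transcribe, was at 0 to 15.2 CPM in Itga1 cells, with no UMI in 2 libraries, and at 53.3 to 96.8 CPM in Itga2 cells. Gzma was at 4272 to 6628 CPM in Itga1 cells and 11074 to 12852 CPM in Itga2 cells (log2 fold change -1.07, SE 0.10, edgeR adjusted p = 1.09e-06). Gzmb (-1.06), Ccl5 (-1.05), Ccl4 (-1.02), Prf1 (-0.81), Zeb2, a factor of terminal maturation (-0.79), Irf8 (-1.18) and the interleukin 12 receptor gene Il12rb2 (-1.45) were lower in Itga1 cells. Among the Ly49 genes Klra4 (-2.04) and Klra8 (-1.69) were lower in Itga1 cells, with Klra7 (-0.71). Eomes was lower too (-1.21, SE 0.20, edgeR adjusted p = 0.00075), at 48.2 to 110 CPM against 174 to 215 CPM, whereas Tbx21 did not pass (-0.12, edgeR adjusted p = 0.72).

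**Figure D4:**
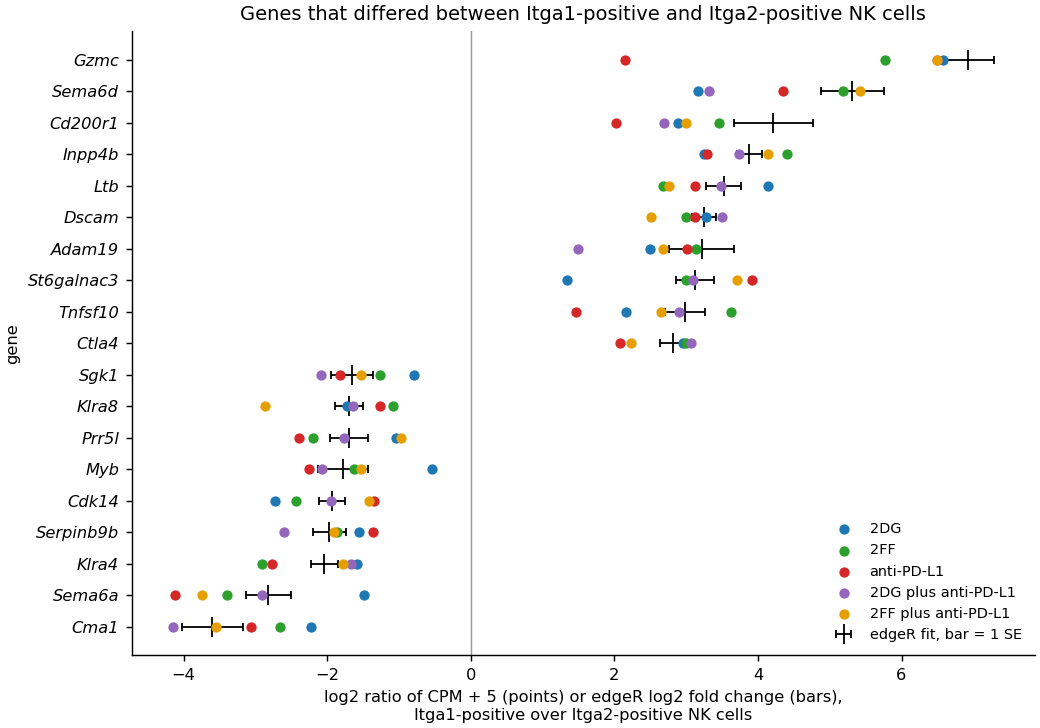
Named genes that differed between Itga1-positive and Itga2-positive NK cells, with the log2 ratio of CPM + 5 as 1 point per library (5 libraries) and the edgeR log2 fold change with 1 SE as a black bar. The genes were chosen to have 1 sign in every library, so points on 1 side of 0 are not a result. Gzmc, Inpp4b and Ctla4 lie above 0, and Cma1, Klra4 and Klra8 below 0. For Gzmc the anti-PD-L1 library lies at 2.14 and the others at 5.77 to 6.58. Gzmc, Cma1, Cd200r1, Sema6d, Adam19, Tnfsf10 and Ltb had few or no UMIs in 1 of the gates, so a bar for them gives no size.

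The Cst3 level in Itga1 cells was 1847 CPM in the anti-PD-L1 library and 49.5 to 162 CPM in the other 4. Of the 268 Cst3 UMIs behind the former value, 264 were those of 1 cell. The 11 macrophage and monocyte markers together are given for 2DG, 2FF, anti-PD-L1 and the 2DG and 2FF combinations. They summed to 202, 914, 1998, 506 and 666 CPM in Itga1 cells and 146, 318, 195, 344 and 779 CPM in Itga2 cells. With 2FF, Spp1 led in Itga1 cells at 720 CPM. The part of these transcripts in the comparison was not tested. Leaving out the anti-PD-L1 library kept all 20 named genes past the threshold. They had been chosen as passing in the same data, so this cannot show what the Cst3 transcripts added. Among the T cell markers that could be tested, Cd28, a costimulatory receptor, was higher in Itga1 cells (log2 fold change 1.21, edgeR adjusted p = 0.000981), at 136 to 166 CPM against 40.7 to 122 CPM, and Trbc1, Trbc2 and Lef1 did not pass. The 11 markers summed to 671 to 951 CPM in Itga1 cells and to 641 to 829 CPM in Itga2 cells, with Trbc1 leading in 4 of the 5 libraries of the former, and Trac was at 0 to 14.4 CPM and 9.93 to 14.1 CPM. At 2000 UMIs per cell Itga1 was detected in 27.9 to 35.8% of CD8 T cells and 13.5 to 22.4% of NK cells, and Ltb in 38.6 to 49.0% and 2.89 to 15.7%, so both were seen more often in CD8 T cells, and the part of T cell RNA in this comparison was not tested. No B cell marker had enough counts to be tested.

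A second comparison followed maturation. Cells with an Itgam (CD11b) UMI and no Cd27 UMI (784 cells) were compared with cells with a Cd27 UMI and no Itgam UMI (73 cells). Requiring 20 cells in each gate left 1 library, so the comparison was run with at least 10, a choice made after the cells had been counted; the Cd27 gate held 10 to 28 cells per library. Of 4776 genes tested, 179 were higher in Itgam cells (3.75%) and 202 in Cd27 cells (4.23%) by the same edgeR test, and without the 2DG library the counts were 118 and 129.

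Gzma was at 11401 to 14949 CPM in Itgam cells and 3512 to 4948 CPM in Cd27 cells (log2 fold change 1.61, SE 0.12, edgeR adjusted p = 5.91e-10). Gzmb (1.55), Ccl5 (1.48), Prf1 (1.36) and Zeb2 (1.66) were higher in the same cells. Klra9 was at 289 to 373 CPM in Itgam cells and 11.1 to 133 CPM in Cd27 cells, where it had 1 to 21 UMIs per library. S1pr5, the receptor that lets mature NK cells leave tissue, was at 39.4 to 96.8 CPM in Itgam cells and had no UMI in the Cd27 cells of 4 of the 5 libraries. Klrg1 (0 in 3 libraries) and Il1r2 (0 in 4) behaved likewise, so their fitted values of 4.66, 3.20 and 5.13 depend on the fit's prior count and give no size.

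Rora was at 144, 1160, 597, 919 and 1007 CPM in Cd27 cells of the 2DG, 2FF and anti-PD-L1 libraries and of the 2DG and 2FF combinations, against 63.7 to 183 CPM in Itgam cells. Within each library the Cd27 cells were higher (log2 fold change -2.78, SE 0.21, edgeR adjusted p = 7.35e-10). Here too the genes named by size were chosen to have 1 sign in every library, so that agreement is not a result. Xcl1 (-2.56) and Emb (-2.50) were higher in Cd27 cells, with Stmn1 (-1.85) and Mki67 (-1.51), genes of dividing cells. Inpp4b was higher in them as well (-2.17), so it, Rora, Xcl1 and Emb were higher on the Itga1 side of the first comparison and on the Cd27 side of the second. The same NK cells enter both comparisons, which are not independent. Eomes (-0.39) and Klra7 (0.02) did not pass. Tcf7, Ltb and Crtam passed the filter mainly through their Cd27 cells. Of the T cell markers, Trbc1 (-0.66) and Cd28 (-1.39) were higher in Cd27 cells and Lef1 (0.88) in Itgam cells, and the 11 summed to 701 to 1491 CPM in Cd27 cells and to 596 to 781 CPM in Itgam cells. Trac had no UMI in the Cd27 cells of 3 libraries. Cst3 was higher in Itgam cells (1.15) and Ighm, the only B cell marker tested, in Cd27 cells (-1.39), and the part of these transcripts in the comparison was not tested.

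Between treatments, each combination was first set against anti-PD-L1 alone, a library that both comparisons share. With 2DG, 67 of 7012 genes (0.956%) were more than 2-fold higher and 49 (0.699%) more than 2-fold lower on the scale of log2(CPM + 5). With 2FF, 44 of 6471 genes (0.68%) were more than 2-fold higher and 25 (0.386%) lower. Either way, 1.65% and 1.07% passed. In both combinations the medians of the early and ILC1 lists were above 0 and that of the late list below 0. The early and ILC1 lists overlap in membership, so their medians are not separate observations. The shared anti-PD-L1 library itself stood at 0.41 over the control for the late list (9 of 10 above 0), at -0.30 for the early list (5 of 8 below 0) and at 0.75 for the ILC1 list (4 of 5 above 0). Over all genes tested 2541 of 4844 were above 0 there.

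The early maturation list stood at a median log2 ratio of 0.72 in the 2DG combination (10 of 10 tested genes above 0, 4 past 2-fold) and of 0.42 in the 2FF combination (7 of 9 above 0, 1 past 2-fold). Over all genes tested the medians were -0.05 and -0.03, with 3081 of 7012 and 2985 of 6471 above 0. The ILC1 list stood at 0.60 (7 of 9 above 0, 2 past 2-fold) and 1.03 (8 of 9 above 0, 5 past 2-fold). The late maturation list stood at -0.50 and -0.52, with 9 of 10 genes below 0 in each; the exception was Gzmb, at 0.57 and 0.50. The cytotoxic list lay at 0.04 in both. Without the 13 Cst3-high cells the early list stood at 0.71 and 0.43, the ILC1 list at 0.58 and 0.91 and the late list at -0.51 and -0.52.

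Xcl1, the ligand of the receptor on cross-presenting dendritic cells, was at 71.9 CPM with anti-PD-L1 (58.9 to 87.0), 202 in the 2DG combination (183 to 221) and 223 in the 2FF combination (200 to 248). It stood at 86.8 CPM in the control (47.5 to 146), 118 with 2DG (102 to 137) and 332 with 2FF (296 to 372). It was thus highest with 2FF alone, and the control, 2DG and anti-PD-L1 stood lowest. A single cell held 79 of the 339 Xcl1 UMIs in the 2FF combination. Zeb2 ran the other way, at 1111 CPM with anti-PD-L1 (1058 to 1166), 604 in the 2DG combination (572 to 638) and 804 in the 2FF combination (760 to 850). Rora was at 191, 400 and 344 CPM in these 3 libraries. Ctla4 was at 74.0, 185 and 185 CPM. S1pr5, on the late side, was at 71.9, 39.7 and 32.2 CPM.

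Against the same inhibitor without antibody, anti-PD-L1 went with different values on 2DG and on 2FF. Of 7049 genes 84 (1.19%) were more than 2-fold higher and 32 (0.454%) lower in the 2DG combination than with 2DG. Of 5932 genes 30 (0.506%) were higher and 31 (0.523%) lower in the 2FF combination than with 2FF, 1.65% and 1.03% either way. Over all genes tested the medians were -0.02 and -0.01, with 3314 of 7049 above 0 on 2DG and 3077 of 5932 below 0 on 2FF. The ILC1 list stood at a median of 0.88 on 2DG (8 of 9 genes above 0) and of -0.26 on 2FF (8 of 9 below 0), and the early maturation list at 0.70 (9 of 10 above 0) and -0.54 (9 of 10 below 0). Emb, a cell adhesion protein of immature NK cells, shows the pattern in levels: it was at 380 CPM with 2DG (350 to 411) and 936 in the 2DG combination (896 to 977), but at 792 with 2FF (735 to 852) and 544 in the 2FF combination (508 to 583). Immediate early genes, which answer receptor signals or cell handling within minutes, were at a median of 0.94 on 2DG, with 12 of 12 above 0 and 5 past 2-fold, and of 0.13 on 2FF. Zfp36, which destabilises cytokine transcripts, had 180 CPM with 2DG and 528 in the 2DG combination. The difference between the antibody's values on the 2 inhibitors was not tested, with 1 mouse in each group.

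**Figure D5:**
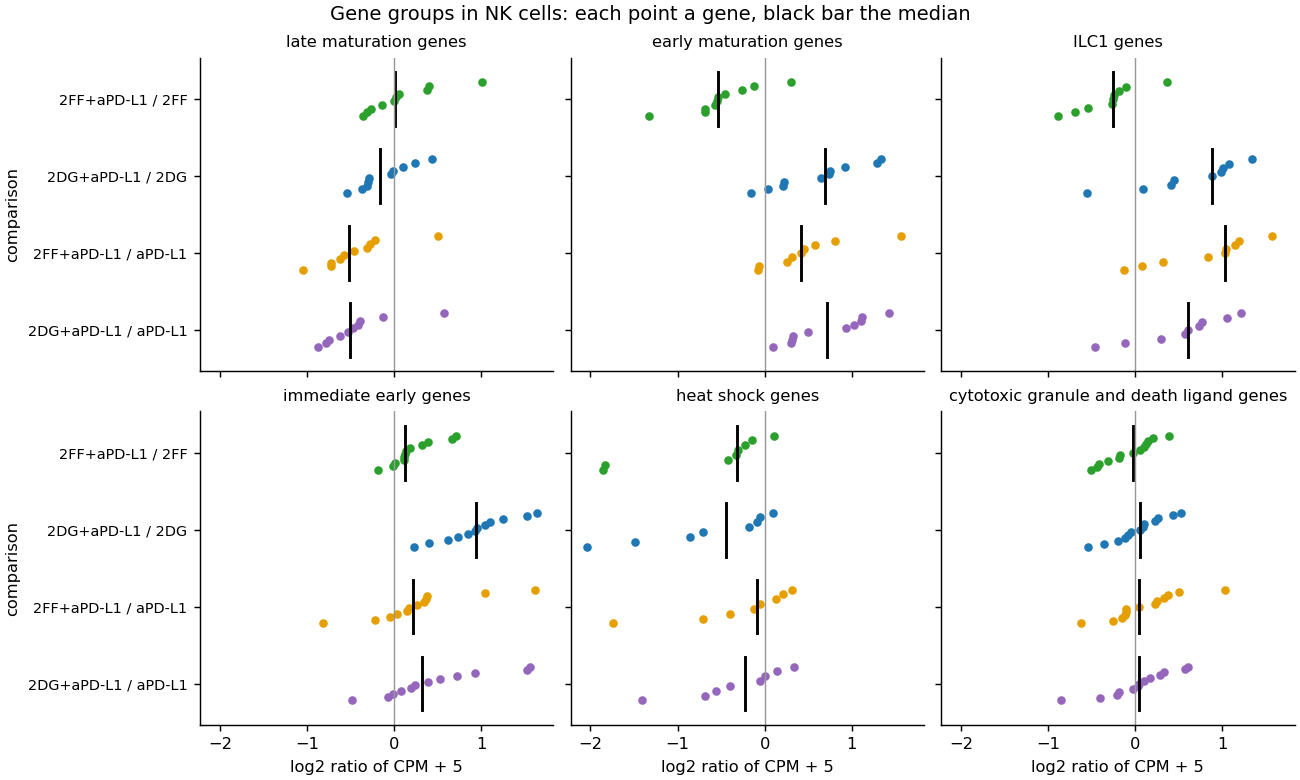
Median (black bar) log2 ratio of CPM + 5 for gene lists in NK cells, for the 2 combinations over anti-PD-L1 (aPD-L1) and over the same inhibitor alone, with 1 small point per tested gene. The late maturation median lies at -0.50 and -0.52 over anti-PD-L1, and the early maturation median lies at 0.70 on 2DG and -0.54 on 2FF.

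Of the libraries, 3 pairs differ by anti-PD-L1 and share no library, and over them 625 of 4800 genes were higher in every pair and 606 lower in every pair. With the inhibitor as a block, an edgeR test of the antibody over the 6 libraries, added after seeing the data, called 0 of 8824 genes higher and 2 lower (0.0227%), Hspa1b and Hspa1a, where 236 and 123 had an unadjusted p under 0.05 and DESeq2 called 1 and 3. Of the 8 heat shock genes 7 were lower in every pair and 1, Hspa8, was higher. Hspa1b, an inducible HSP70 chaperone gene, was at 416 CPM in the control, 153 with 2DG, 106 with 2FF, 97.1 with anti-PD-L1, 33.3 in the 2DG combination and 25.6 in the 2FF combination. It fell with the antibody by 2.10 on the log2 scale (SE 0.20, edgeR adjusted p = 6.83e-05, lower in 3 of 3 pairs), but with no block the edgeR adjusted p was 0.712. The log2 ratios of its pairs were -2.04, -2.04 and -1.85, and each antibody library lay below its partner without overlap of the counting intervals. The near-identical Hspa1a next to it (chr17:34956436-34959238 and chr17:34969190-34972156 in GRCm38) had -2.43, -1.48 and -1.83 (edgeR adjusted p = 0.000673, or 0.14 with no block), and reads can be split between the 2 genes. In all other cells Hspa1b was at 393, 207, 114, 160, 37.0 and 125 CPM in the same order of libraries, so there too it was lower with the antibody in the first 2 pairs, but not on 2FF.

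Among genes higher in all 3 pairs, none of which passed the edgeR test of the antibody, were Egr1, an immediate early factor (log2 ratios 1.71, 1.10 and 0.71), Osm, which encodes the cytokine oncostatin M (0.68, 0.74 and 1.10), Hes1, a Notch target (2.15, 0.99 and 0.98), Rgs16, a regulator of chemokine receptor signals (0.87, 1.02 and 0.71) and Scml4 (1.20, 0.86 and 0.66). Scml4 over the control was -0.024 after thinning, and in cells with no UMI of another T cell gene the 2DG pair stood at -0.22 for Egr1 and at -0.29 for Cxcl2. Cxcl2, a neutrophil chemokine, had 2.56, 1.36 and 0.77, but single cells held 238 of its 520 UMIs with anti-PD-L1 and 127 of 314 in the 2FF combination. They also held 97 of 191 in the 2DG combination, 58 of 109 with 2FF and 42 of 50 with 2DG. Egr1 had 9 UMIs in the control, and its counting interval there was 25.5 to 106 CPM. Of 9 cytokine and chemokine genes 5 were higher in every pair and none lower. Beside the heat shock pair, Ccdc85b (-0.70, -0.72 and -0.65), Ddx19b (-0.77, -0.52 and -0.68), Pgs1 (-0.51, -0.53 and -0.45) and Eif2ak3, the stress kinase PERK (-0.61, -0.45 and -0.41), were lower in all 3 pairs, and none of these passed the edgeR test of the antibody either.

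For 2FF there are 2 pairs that share no library, over the control and over anti-PD-L1. Xcl1 was higher in both (log2 ratios 1.88 and 1.57), as were Crtam (2.11 and 1.37), Tnfsf10 (2.10 and 1.03), Gpr183 (1.21 and 1.04), Tnip3 (1.56 and 1.47) and the histone gene Hist1h1b (3.85 and 1.45), which was at -0.30 over anti-PD-L1 in cells with no myeloid UMI. Of the early maturation genes 6 of 8 were higher in both pairs, and of the ILC1 genes 4 of 6, where 1005 of 3757 genes were higher in both. Prr5l, part of the mTORC2 complex (-1.08 and -0.88), Plxnc1 (-1.05 and -1.02), Colgalt1 (-0.64 and -0.65) and Il31ra (-0.60 and -0.98) were lower in both, with Hspa1b and Hspa1a.

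For 2DG the pairs are again over the control and over anti-PD-L1. The RNA helicase gene Dhx40 was at 80.6 CPM in the control (42.9 to 138), 200 with 2DG (179 to 223), 194 with anti-PD-L1 (172 to 218) and 518 in the 2DG combination (489 to 549), with log2 ratios of 1.26 and 1.39. Ltb (2.15 and 1.12), the drug transporter gene Abcb1b (1.05 and 1.22), Mki67 (1.34 and 0.95), Hist1h1b (2.00 and 1.38) and Tg (1.52 and 0.90) were higher in both. Lower in both were Isg15, an interferon-induced ubiquitin-like protein (-2.25 and -1.06), St3gal3, a sialyltransferase (-2.42 and -0.95), Rap1gap2 (-1.0 and -0.89), Cog3 (-1.04 and -0.84), Dipk1a (-1.18 and -0.84) and Hspa1b (-1.41 and -1.41). Of the control's 21 Isg15 UMIs 14 lay in its 1 Cst3-high cell. Without the Cst3-high cells the log2 ratio of Isg15 for 2DG over the control was -1.23, with 7 UMIs left in the control, and the median of the interferon list over the control turned from below 0 to above 0. With anti-PD-L1 a single other cell held 45 of 102 Isg15 UMIs and 63 of 131 of Rsad2. Over 4999 genes tested, 1033 were higher and 1385 lower in both 2DG pairs.

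The pathways that the inhibitors address were present in NK cells at low to moderate levels. Mgat5, an N-glycan branching enzyme that the study addresses, was at 546 CPM in the control (438 to 672), 776 with 2DG (734 to 821), 757 with 2FF (702 to 816), 857 with anti-PD-L1 (811 to 906), 903 in the 2DG combination (863 to 943) and 862 in the 2FF combination (816 to 910), where CD8 T cells had 225 to 307 CPM. The control was lowest and the 3 antibody libraries overlapped. Fut8, the core fucosyltransferase, was at 123 to 198 CPM, and Fut9 and Fut10 had no UMI. The N-glycan branching list stood at medians of 0.07, 0.01, 0.13 and 0.05 in the 4 comparisons of the combinations, with no gene past 2-fold, and the glycolysis list at -0.15, -0.02, -0.14 and -0.11, also with none.

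Comparisons with the control rest on 23 cells. There 6.14% of 5001 genes were more than 2-fold higher with 2DG and 3.16% lower (9.3% either way), 5.74% and 2.42% of 3761 with 2FF (8.16% either way), and 7.64% and 2.83% of 4844 with anti-PD-L1 (10.5% either way). These 3 comparisons share the control library, and its Cst3-high cell and its low depth enter each of them.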

How the data were processed

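Gene counts were made by the authors with Cell Ranger on the mm10 reference of that suite (GRCm38 gene models), from Chromium 3′ libraries, and deposited as whole-number UMI counts for 32285 genes. The matrix headers name Cell Ranger 7.0.0 and the submitters' processing notes 3.1.0, and whether intronic reads were counted is not given in the sources used here. Replicates were not pooled. The 6 libraries, 1 mouse each, held 61859753 to 73885214 UMIs over 57078 barcodes.

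From the deposited counts, NK cells were selected by the rule given above and their UMIs were summed per library. Levels are CPM with exact Poisson 95% intervals. Ratios are log2(CPM + 5) for genes with at least 50 UMIs over the 2 libraries, and a ratio past 2-fold was counted, so changes of low genes are understated. Shares of cells with a UMI were taken after thinning to 2000 UMIs per cell. Subset comparisons used edgeR 4.0.16 (R 4.3.3; TMM factors, quasi-likelihood test, library as block, Benjamini-Hochberg adjustment, threshold 0.05) on summed counts of gates with at least 20 cells, or 10 for Cd27, with DESeq2 1.42.0 as an alternative. Anti-PD-L1 was tested with the same tools on NK sums of all 6 libraries, with the inhibitor (none, 2DG or 2FF) as block. The scripts (Python 3.11.15, NumPy 2.4.6, SciPy 1.17.1, pandas 2.3.3) were tested on simulated data. No doublet caller was run. Leaving out NK cells above 3 times the median UMI count was an alternative, among those of the closing section.

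The members, the 28 gene lists and the tests were chosen with earlier results of these data known. Named were the listed genes, the 6 higher and 6 lower genes per treatment with the same sign in all its pairs and the largest smallest ratio, and the 10 higher and 10 lower genes by fold change past the threshold with 1 sign in every library. Genes of the rule and gates, Xist, genes for haemoglobin, immunoglobulin, ribosomal proteins or T cell receptors, mitochondrial genes, unnamed genes and, between treatments, genes under 20% of their level in other cells were left out of the choice by size. All 316 listed or named genes matched GENCODE M21. Some items are not reported here.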

Additional observations from a re-analysis of the deposited data

Results flagged for a closer look

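Gzmc in the anti-PD-L1 library stood apart in the comparison of Itga1 and Itga2 cells. Its log2 ratio of Itga1 over Itga2 cells was 2.14 there and 5.77 to 6.58 in the other 4 libraries, a gap of 0.819 of the whole range, where 0.71 is the limit for 5 samples. With 1 to 6 UMIs per library in Itga2 cells these ratios depend on the added 5 CPM, so no conclusion is drawn from that limit. By level, Gzmc in Itga1 cells was at 48.2 CPM there and at 404 to 975 CPM in the other 4. The 40 named genes of the 2 comparisons were examined in this way, and chance gives about 1 such value in 20. In that library 1 cell with UMIs of both integrins held 196 of the 211 Gzmc UMIs and entered neither gate.

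Anti-PD-L1 went with medians of opposite sign on 2DG and on 2FF, both more than 0.25 from 0, for 3 of the 18 gene lists with at least 5 genes tested in each pair. The medians of the inhibitory receptor, cytotoxic, cytokine receptor and late maturation lists also had opposite signs but lay nearer to 0. The early maturation list, which overlaps in membership with the ILC1 list, stood at 0.70 over 2DG and at -0.54 over 2FF. The ILC1 list stood at 0.88 and -0.26, and the cell cycle list, with Mki67 and Top2a, at 0.56 and -0.42, but without high-UMI NK cells the latter was 0.19 on 4 genes. The share of NK cells with at least 3 cell cycle UMIs went against these medians over all UMIs but not at equal depth: it was 8.61% with 2DG and 4.34% in the 2DG combination, and 6.79% with 2FF and 7.46% in the 2FF combination, or 2.63, 2.70, 3.82 and 3.17% at 2000 UMIs per cell. Each value compares 1 mouse with 1 mouse, and the difference between the 2 inhibitors was not tested.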

How the results depend on the processing

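Of 1130 values of single genes under the alternatives, 1089 kept their direction and their side of the threshold or moved by less than counting error, 36 moved by more, and 4 reversed: Scml4 for anti-PD-L1 over the control was -0.024 after thinning, Hist1h1b for the 2FF combination over anti-PD-L1 was -0.30 in cells with no myeloid UMI, and Cxcl2 and Egr1 for the 2DG combination over 2DG were -0.29 and -0.22 in cells with no UMI of another T cell gene. Under that last setting 8 of 24 values were kept, against 96 of 112 with no myeloid UMI and 44 of 52 after thinning. Igsf5 lost its call in cells with no myeloid UMI (log2 fold change 2.57). DESeq2 and upper-quartile factors kept all 40 named subset genes. These genes had been chosen as passing in the same data, so keeping them under an alternative is no independent support. The cause of these changes was not tested, beyond fewer cells or genes entering.

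The share of NK cells moved with 3 choices, and its values stand for the control first, then for 2DG, 2FF and anti-PD-L1 each alone, then for the 2DG and at last the 2FF combination. They were 0.0441, 0.74, 0.369, 0.875, 0.964 and 0.564% with no UMI of another T cell gene, and 4.52, 8.52, 4.72, 9.7, 12.5 and 10.2% over NK plus Cd3-positive cells, a choice made after seeing the data. With no myeloid UMI the last 5 were 2.95, 1.32, 2.85, 3.82 and 2.31%.

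Counts of genes past 2-fold moved with the pseudocount and the count minimum. With 2DG over the control, 132 genes were higher and 76 lower at CPM + 20, 769 and 371 with at least 20 UMIs, 120 and 56 with at least 100 UMIs, and 195 and 86 after thinning. With 2FF over the control the counts were 123 and 56, 623 and 235, 88 and 30, and 98 and 39, with 56 lower when no other T cell gene was present. With anti-PD-L1 over the control they were 193 and 74, 824 and 322, 148 and 52, and 240 and 80. For the 2DG combination over anti-PD-L1 they were 101 and 94 at CPM + 1, 20 and 15 at CPM + 20, 109 and 93 with at least 20 UMIs, 33 and 25 with at least 100, and 43 and 22 after thinning. For the 2FF combination over anti-PD-L1 they were 54 lower at CPM + 1, 15 and 9 at CPM + 20, 93 and 72 with at least 20 UMIs, 22 and 12 with at least 100, 38 lower with no myeloid UMI, 108 and 52 with no other T cell gene, and 24 higher after thinning. For the 2DG combination over 2DG they were 60 lower at CPM + 1, 34 and 15 at CPM + 20, 145 and 63 with at least 20 UMIs, 70 lower with no other T cell gene and 21 lower without high-UMI cells. For the 2FF combination over 2FF they were 59 and 55 at CPM + 1, 8 and 17 at CPM + 20, 87 and 88 with at least 20 UMIs, 11 and 16 with at least 100, 59 higher with no other T cell gene, and 13 lower after thinning. Without the 13 Cst3-high cells, a choice made after seeing the data, no count moved by over 1.5 times, but over the same genes the interferon medians over the control turned from below 0 to above 0 for 2DG, 2FF and anti-PD-L1.

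The test of anti-PD-L1 over 3 pairs has 2 residual degrees of freedom and was added after seeing the data. Its calls were 0 higher and 2 lower, 36 and 9 without a filter, 0 and 0 with no replicate block, 12 and 2 without Cst3-high cells, 1 and 3 by DESeq2, and 2 to 16 and 4 to 10 with 1 pair left out: 5 and 5 without the pair over the control, 2 and 4 without the 2DG pair, 16 and 10 without the 2FF pair. Hspa1b and Hspa1a were called in each of these but the fit with no replicate block (edgeR adjusted p 0.712 and 0.14). In the subset comparisons the library is the block. With no replicate block 154 genes were higher in Itga1 cells and 160 in Itga2 cells, and 147 in Itgam cells and 180 in Cd27 cells, and all named calls of the subsets were kept. Without a filter on low counts 492 genes were higher in Itga2 cells, 354 in Itgam cells and 121 in Cd27 cells. After thinning 75 were higher in Itga1 and 68 in Itga2 cells. Leaving out 1 library at a time gave 129 to 189 genes for Itga1, 131 to 222 for Itga2, 118 to 151 for Itgam and 129 to 175 for Cd27. The lowest Itga2 counts were 137 without 2DG and 131 without the 2DG combination, and 118 and 129 for Itgam and Cd27 came without 2DG. The comparisons with no other T cell gene, and the Cd27 comparison after thinning, left too few cells to run. The late, early and ILC1 medians of both combinations over anti-PD-L1 kept their sign under every alternative tried, and the late median over 2DG or 2FF alone did not.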
